A study of Mus musculus with 12 samples.

Results

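The genes described here are those of the interferon response and of the sensing of viral RNA inside cells, in mouse cerebellum. They are 52 mouse genes chosen by name. Like the other lists used here, they were chosen with earlier results of these data known. A share above that of all genes therefore comes from no independent list. A row was taken where the array platform's annotation gives it exactly 1 gene symbol and that symbol is on the list. Of the 52 genes, 42 have such a row in the gene-level table, among 14847 genes with 1 symbol there, and 47 have at least 1 in the exon-level table, with 557 probe sets in all. Isg15, Usp18, Herc6, Xaf1 and Oas1a have no such row and were not analysed here. Ifit3, Oas3, Ifitm2, Gbp6 and Ifi44 were measured at the exon level and not at the gene level. Rows that name Ifit3, Oas1a, Oas3 or Gbp6 together with another gene were left out, and probe sets of close relatives such as the guanylate-binding proteins may also take up each other's RNA.

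The samples are cerebellar total RNA of female mice at postnatal day 30, biological replicates per the series text, each on an Affymetrix Mouse Exon 1.0 ST array. Of the 6 arrays, 3 are from wild-type mice and 3 from NMF291–/– mice, which have lost 5 nucleotides of Rnu2-8, a gene for the U2 small nuclear RNA of the spliceosome. The labels state no treatment, strain background or litter for either genotype, and they give wild-type mice matched for age and sex as the controls. The same 6 arrays are summarised once per gene and once per probe set, a small group of probes that usually lies in 1 exon, so the tables are not independent of each other.

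Type I interferons are secreted when a cell detects foreign or misplaced nucleic acid. Inside cells, long or unusual RNA is bound by the helicases RIG-I (Ddx58) and MDA5 (Ifih1), which signal through the mitochondrial adaptor Mavs to interferon regulatory factors. Secreted interferon acts through the receptor of Ifnar1 and Ifnar2, and a complex that contains Stat2 and Irf9 then switches on a large set of induced genes. Many of these encode proteins that bind, cut or edit RNA or that restrict viruses at membranes. In brain, microglia, the resident macrophages, astrocytes and neurons can all respond to interferon.

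Values are on a log2 scale and differences are NMF291–/– minus wild type. Over the gene-level table the medians of the arrays lay between 8.00 and 8.09. They were 8.03, 8.02 and 8.00 in wild type and 8.05, 8.09 and 8.05 in NMF291–/–, so every NMF291–/– median was above every wild-type one. Arrays of the same genotype correlated at 0.992 to 0.994 over all rows. Markers of cerebellar granule neurons and of Purkinje cells had wild-type means of 9.92 to 13.4, above the table median of 8.04. The median of the choroid plexus markers was 1.45 below the wild-type mean on the array of NMF291–/– replicate 3. With 3 arrays a genotype, precision is limited by their number.

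No gene of the list passed the test at the gene level, although differences above 0 were the more frequent ones. Of the 42 genes, 34 (81%) had a difference above 0 and 8 one below 0, where 51.8% of all genes with 1 symbol were above 0 and 48.2% below. In bulk tissue, more or fewer cells of a type and more or less RNA per cell cannot be told apart. The median difference was 0.12, beside 0.005 over all genes. It was 0.07 after each array was centred on its median, beside -0.04 over all genes, and 0.08 after quantile normalization, beside -0.03. The smallest adjusted p was 0.0726 (limma, Benjamini-Hochberg over all rows), and 6.5% of all genes with 1 symbol passed at an adjusted p of 0.05, 4.21% higher and 2.29% lower. The count depended on the rows tested: with limma refitted on rows at or above the table median alone, 6 of the 14 genes there passed, Mavs, Lgals9, Adar, Irf9, Lgals3bp and Stat2 (adjusted p from 0.0209 to 0.0419), where 23.3% of all genes in those rows did. At an unadjusted p under 0.05, 9 of the 42 genes were higher in NMF291–/– (21.4%, against 14.8% of all genes) and 0 were lower (8.98% of all genes). The 9 are Mavs, Ddx58, Adar, Irf8, Lgals9, Irf9, Stat2, Lgals3bp and Irf5. The split depended on the scaling. After median centring 6 genes were higher and 3 lower at that p, against 9.58% and 15.7% of all genes: Adar, Stat2 and Irf5 no longer met it (limma unadjusted p = 0.0573, 0.0654 and 0.121), and Irf1, Irf2 and Samhd1 met it on the lower side. After quantile normalization 7 were higher and 2, Irf2 and Samhd1, lower, against 11.1% and 14.4% of all genes. In 11 genes every NMF291–/– array lay above every wild-type array (26.2%, against 19.9% of all genes), and in 2, Irf1 and Irf2, every one lay below (13.3% of all genes were placed so). The count above 0 depended on how arrays were scaled: it was 28 of 42 after median centring, where 35.4% of all genes were above 0, and 29 of 42 after quantile normalization, where 38.8% were.

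1 array stood out. The array of NMF291–/– replicate 2 held the highest of the 6 values in 31 of the 42 genes (73.8%), while the same array was highest in 19.9% of all genes, and it held the lowest value in 0 of the 42. The array of NMF291–/– replicate 1 was highest in 0 of the 42 (8.87% of all genes). After median centring replicate 2 was highest in 22 of the 42, against 9.13% of all genes. Among the wild-type arrays, that of replicate 2 was lowest of 6 in 15 of the 42 genes (12.7% of all genes were lowest there). That of replicate 3 was close to it, lowest in 13 of the 42, and its share over all genes is not given here. Without NMF291–/– replicate 2 the median difference of the list was 0.04 and 28 of 42 genes were above 0, against 51% of all genes. In those remaining arrays 11 genes again had no overlap with a higher NMF291–/–, against 22.8% of all genes.

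**Figure D1:**
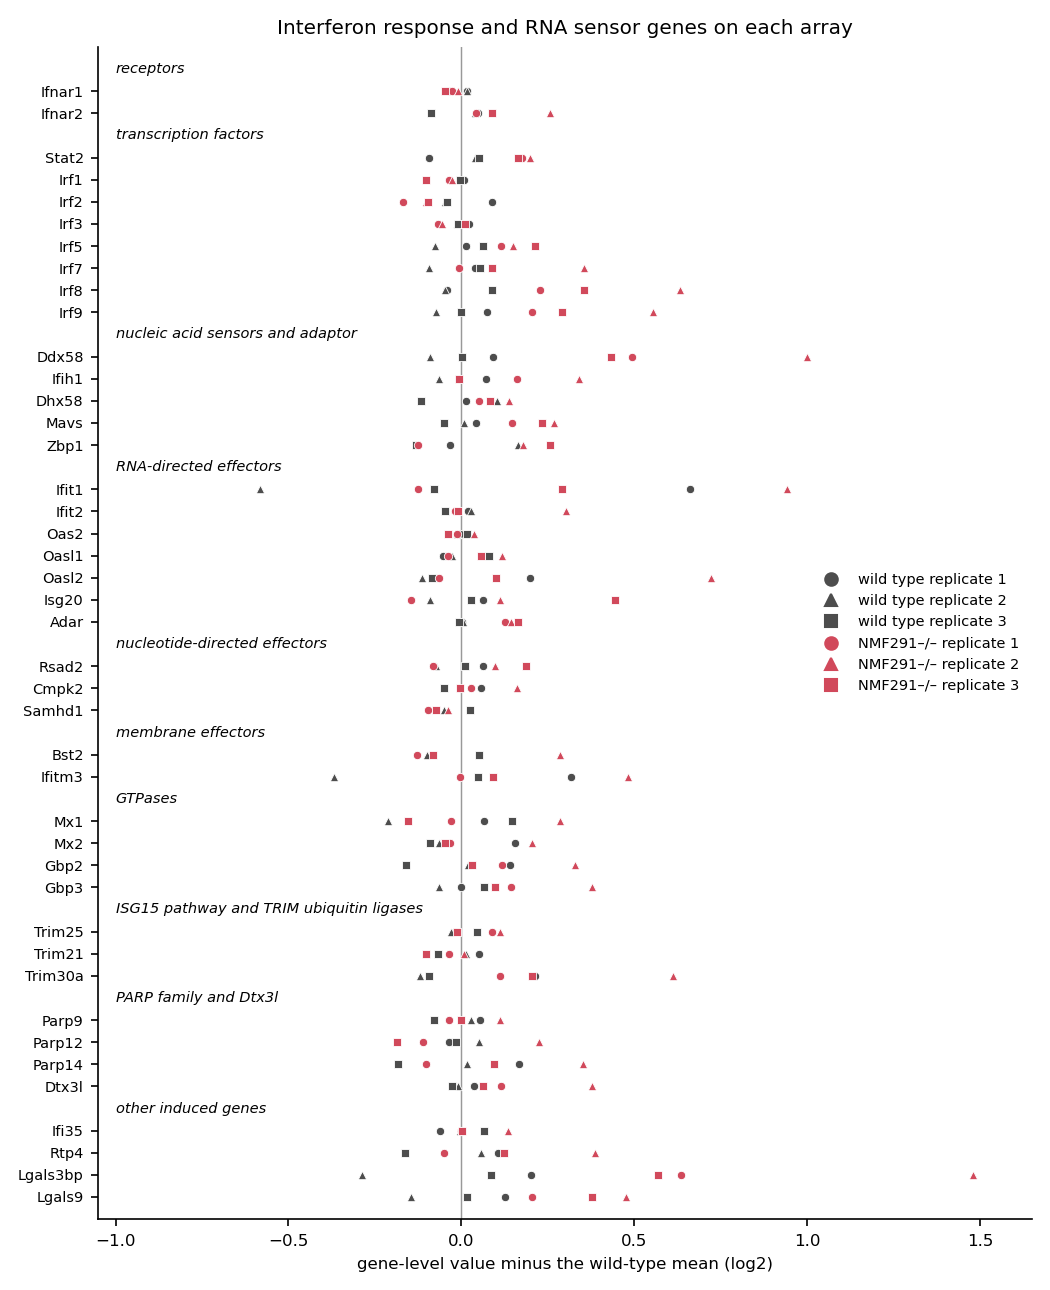
Each row is 1 of the 42 genes measured at the gene level, ordered by role, and each point is 1 of the 6 arrays, given as its log2 value minus the mean of the 3 wild-type arrays. The triangle of NMF291–/– replicate 2 is the rightmost point in 31 rows, and Lgals3bp and Ddx58 show the widest gaps between genotypes.

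The receptor and the transcription factors it acts through come first. Ifnar1, one chain of the receptor, was at 9.24, 9.24 and 9.19 in wild type and 9.20, 9.21 and 9.18 in NMF291–/–, a difference of -0.03 with a 95% confidence interval of -0.13 to 0.07 (limma). Ifnar2, the other chain, had a difference of 0.13 (-0.05 to 0.31). The genotypes overlapped for both chains. Stat2, the signal transducer of the interferon complex, was at 9.72, 9.85 and 9.86 in wild type and 9.99, 10.01 and 9.97 in NMF291–/–. The NMF291–/– arrays were close together and all above wild type, by 0.18 ± 0.05 (SE; limma adjusted p = 0.117). Irf9, the DNA-binding partner of Stat2, was at 8.76, 8.61 and 8.68 in wild type and 8.89, 9.24 and 8.98 in NMF291–/–. Its difference was 0.35 ± 0.10 (SE; limma adjusted p = 0.104), and 0.25 without NMF291–/– replicate 2.

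Of the other regulatory factors, Irf8 had the smallest p. Irf8, a factor needed for the development of microglia and macrophages, was at 7.43, 7.43 and 7.56 in wild type and 7.70, 8.11 and 7.83 in NMF291–/–, without overlap (0.40 ± 0.11, SE; limma adjusted p = 0.0949). Irf5, which acts downstream of Toll-like receptors in macrophages, was at 7.65, 7.56 and 7.70 against 7.75, 7.79 and 7.85 (limma adjusted p = 0.162). Irf5 is named because it belongs to the 9 genes above, after its values were seen. Irf7, the amplifier of interferon production that interferon itself induces, overlapped between genotypes: its wild-type arrays ran from 6.95 to 7.10, and NMF291–/– replicates 1 and 3 were at 7.03 and 7.13 with replicate 2 at 7.40, a difference of 0.15. Irf1 and Irf2, which bind the same DNA element as activator and as its antagonist, lay lower in all NMF291–/– arrays, at -0.05 and -0.12 (limma adjusted p = 0.506 and 0.260), and at -0.10 and -0.17 after median centring (0.198 and 0.122). Irf3, the factor that Mavs signalling activates by phosphorylation, was at -0.04 with overlap. Of the 8 transcription factors 5 were above 0, also after median centring and after quantile normalization, and 0 passed.

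Among the sensors, Ddx58 had the second largest difference of the genes with a gene-level row, after Lgals3bp. Ddx58, which encodes RIG-I, was at 7.66, 7.48 and 7.57 in wild type and 8.07, 8.57 and 8.01 in NMF291–/–. All 3 NMF291–/– arrays lay above wild type, at 1.56-fold on average (0.64 ± 0.16 log2, SE; limma adjusted p = 0.0754). Without NMF291–/– replicate 2 the difference was 0.46 with an adjusted p of 0.0722 (limma). Mavs, the adaptor to which RIG-I and MDA5 signal, was at 8.892, 8.858 and 8.802 in wild type and 8.998, 9.118 and 9.083 in NMF291–/–, again without overlap (0.22 ± 0.05, SE; limma adjusted p = 0.0726). Ifih1, which encodes MDA5, was at 6.81, 6.68 and 6.73 against 6.90, 7.08 and 6.74, and the genotypes overlapped (0.17, interval -0.07 to 0.40). Dhx58, the helicase LGP2 that modulates both sensors, had a difference of 0.09 (-0.08 to 0.26), and Zbp1, a sensor of Z-form nucleic acid, one of 0.10 (-0.20 to 0.41). Of these 5 genes all were above 0 under each of the 3 scalings, and 0 passed.

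**Figure D2:**
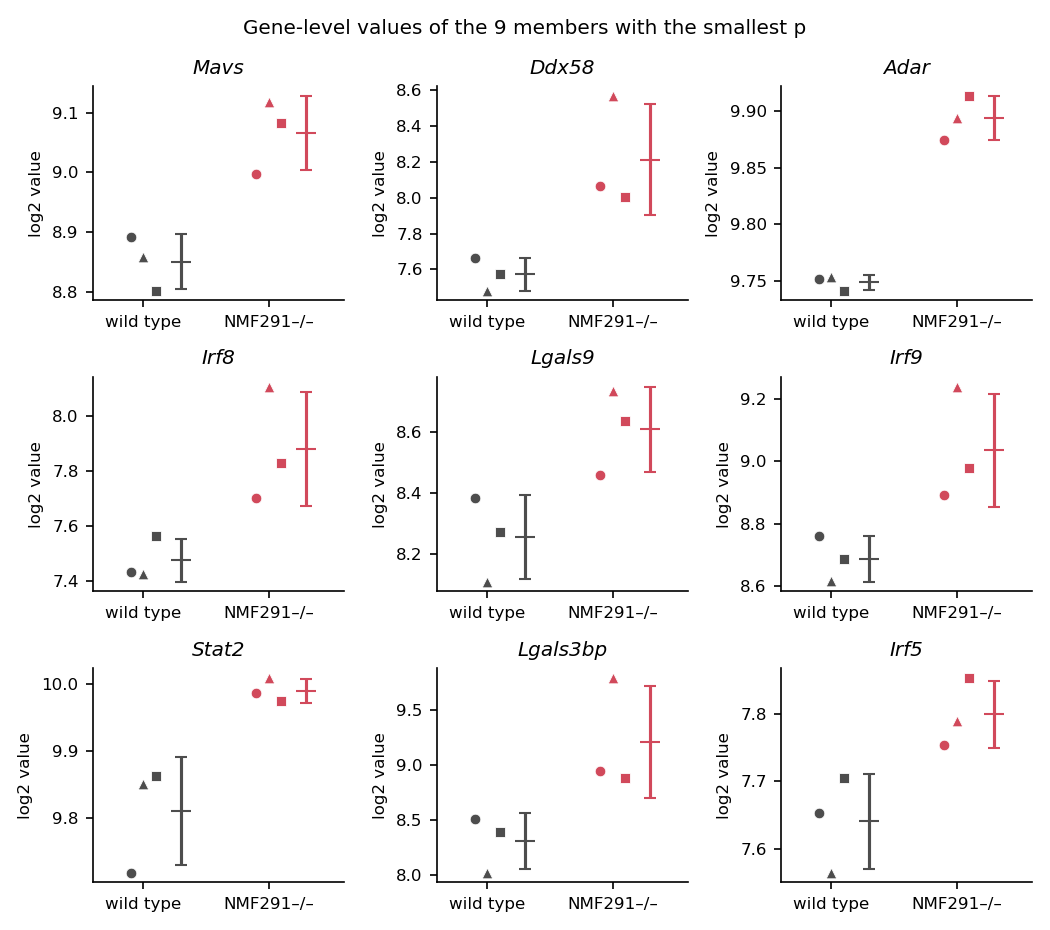
Gene-level log2 values of the 9 genes with an unadjusted p under 0.05, with 1 point per array and, beside the points, the mean with its SD over 3 arrays; each panel has its own axis, which does not start at 0. In all 9 panels every NMF291–/– array lies above every wild-type array, and in Ddx58, Irf8, Irf9 and Lgals3bp replicate 2 of NMF291–/– is well above the other replicates.

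Of 20 probe sets of Ddx58, 18 had a difference above 0, and in 14 every NMF291–/– array was above every wild-type array, where 14.1% of all probe sets with 1 symbol were placed so. Probe set 4339227 was at 8.65, 8.61 and 8.73 in wild type and 9.12, 9.30 and 9.21 in NMF291–/–, and it rose by 0.55 ± 0.09 (SE; limma adjusted p = 0.0496). It was the 1 probe set of the 557 to pass, where 1.02% of all probe sets with 1 symbol did and 0.593% rose, and it did not pass after quantile normalization (limma adjusted p = 0.0526) or median centring (0.0537), or with any array left out. Probe set 5044724 had the largest difference, from 7.42, 6.76 and 6.82 to 8.29, 8.69 and 7.67, which is 2.32-fold (limma adjusted p = 0.110). The probe sets did not move alike: 5259364 was at -0.001 and 4744678 and 5098647 at 0.11 each, while 5221244 was at 7.58, 7.43 and 7.37 in wild type and 7.05, 7.35 and 7.30 in NMF291–/–, lower on every array. Probe sets 4744678 and 5098647 had wild-type values between 4.37 and 5.64, below the 25th percentile of the table, which is 7.06. Some probe sets higher on every NMF291–/– array also had wild-type means below it. These were 5493727 (6.07), 4572114 (6.57), 5601459 (6.61), 5116175 (6.91) and 5044724. The wild-type means of 5221244 (7.46) and 5259364 (7.53) lay above it, so a low level did not set apart the probe sets that were not higher. The positions of these probe sets in the gene were not analysed here.

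**Figure D3:**
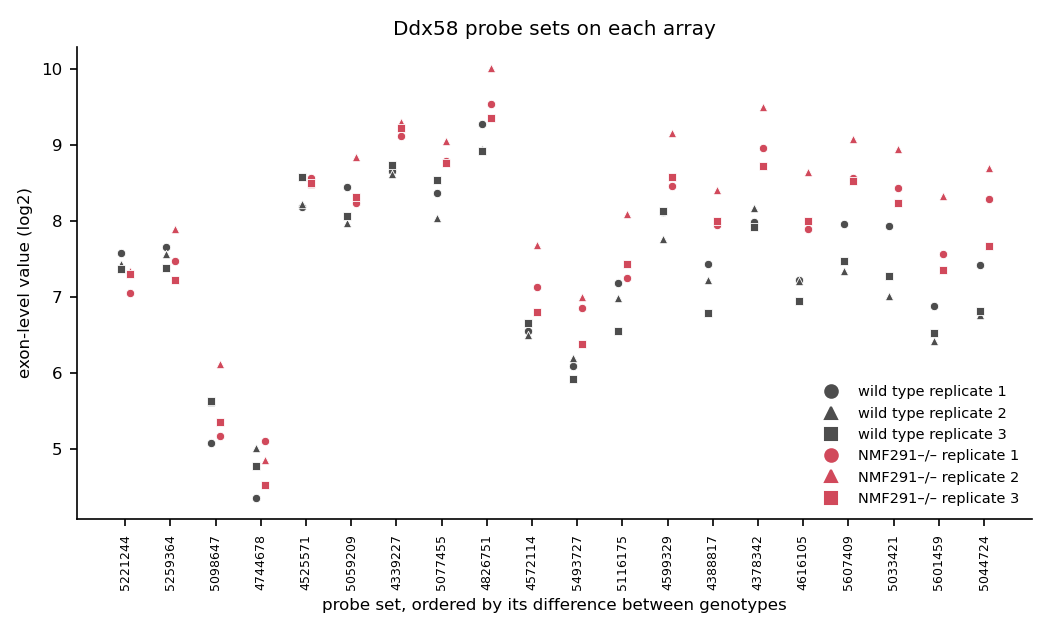
Each of the 20 probe sets of Ddx58 is 1 position on the horizontal axis, ordered by its difference between genotypes, and each point is the exon-level log2 value on 1 array, on an axis that does not start at 0. Differences run from -0.23 for 5221244 to 1.22 for 5044724, and replicate 2 of NMF291–/– is the highest array in 17 of the 20.

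Among effectors that act on RNA and have a gene-level row, 1, Adar, had no overlap between genotypes. Adar, the enzyme that edits adenosine to inosine in double-stranded RNA and has an interferon-induced form, was at 9.75, 9.75 and 9.74 in wild type and 9.87, 9.89 and 9.91 in NMF291–/–. The difference was small, 0.14 ± 0.04 (SE; limma adjusted p = 0.0890), and 0.14 without NMF291–/– replicate 2. After median centring it was 0.10 (limma adjusted p = 0.225) and after quantile normalization 0.11 (0.153). Of the 22 probe sets of Adar, 21 were above 0 and 11 had no overlap. Ifit1, which binds viral RNA ends, showed the widest spread within a genotype: wild type was at 7.90, 6.65 and 7.16 and NMF291–/– at 7.11, 8.18 and 7.53. Its difference of 0.37 therefore has an interval of -0.59 to 1.33, and without NMF291–/– replicate 2 it was 0.08. The gene-level values of Ifit1 equal those of its probe set 5288280, and its other probe set, 4598764, was at -0.016. Oasl2, a relative of the oligoadenylate synthetases, was at 7.95, 7.63 and 7.66 against 7.68, 8.47 and 7.85, so that replicate 2 was the 1 NMF291–/– array above every wild-type array. Ifit2, of the same family as Ifit1, was at 0.09, the oligoadenylate synthetase Oas2 at -0.006, Oasl1 at 0.05 and the RNA exonuclease Isg20 at 0.14, each with overlap. Ifit3, measured by a single probe set, was at 5.79, 4.90 and 4.92 against 5.86, 7.52 and 5.76, where NMF291–/– replicate 3 lay below wild-type replicate 1. Its difference of 1.18 has an interval of -0.01 to 2.37 (limma adjusted p = 0.299).

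Of the antiviral proteins that act on nucleotides, at membranes or as GTPases, 9 genes in all, 0 passed and the genotypes overlapped for each but Gbp3. Samhd1, which degrades deoxynucleotides, was at -0.07 (interval -0.18 to 0.04), Cmpk2, a mitochondrial nucleotide kinase, at 0.06 (-0.09 to 0.21) and Rsad2, or viperin, at 0.07 (-0.13 to 0.27). The probe sets of Rsad2 differed from its gene-level row: 5 of 7 were above 0 and 2 below, with a median of 0.425. Of the 7, 3 were higher at an unadjusted p under 0.05 (smallest limma adjusted p = 0.195), where 10.1% of all probe sets were. The tetherin gene Bst2 was at 7.35, 7.20 and 7.35 in wild type and 7.17, 7.59 and 7.22 in NMF291–/–. Replicate 2 was again the 1 NMF291–/– array above wild type, and without it the difference of Bst2 was -0.11. Ifitm3, which blocks viral entry at endosomes, was at 9.59, 8.90 and 9.32 against 9.27, 9.75 and 9.36, a difference of 0.19 (-0.32 to 0.70). Mx1 and Mx2, the dynamin-like GTPases, were at 0.03 and 0.04, and without NMF291–/– replicate 2 at -0.09 and -0.04. Over their probe sets the median differences were 0.16 and 0.15, with 7 of 8 and 12 of 17 above 0, against 53.1% of all probe sets. Mx1 also had the lowest mean level of the list, 4.29 in wild type, and Stat2 the highest, 9.81; levels of different rows on an array are not comparable. Gbp3, a guanylate-binding protein, was at 6.57, 6.50 and 6.63 against 6.71, 6.95 and 6.67, with no overlap (0.21, interval -0.006 to 0.42; limma adjusted p = 0.228), and Gbp2 was at 0.16 (-0.11 to 0.42).

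For the ubiquitin and ADP-ribose enzymes the genotypes overlapped, with the exception of Dtx3l, and 0 of 7 passed. Trim30a, a TRIM protein of rodents, was at 7.19, 6.86 and 6.88 in wild type and 7.09, 7.59 and 7.18 in NMF291–/– (0.31; limma adjusted p = 0.313), and at 0.16 without replicate 2 of NMF291–/–. Trim25, the ubiquitin ligase that helps to activate RIG-I, was at 0.06 (-0.07 to 0.19), and Trim21, the cytosolic antibody receptor, at -0.04 (-0.17 to 0.09). Dtx3l, a ubiquitin ligase that works together with Parp9, was at 7.13, 7.08 and 7.06 against 7.20, 7.47 and 7.15, with no overlap (0.19; limma adjusted p = 0.288). Parp9 itself was at 0.03, Parp14 at 0.12 and Parp12 at -0.02. Without NMF291–/– replicate 2, Parp12 was at -0.15 and Parp14 at -0.003.

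The remaining induced genes include the largest difference among the genes with a gene-level row. Lgals3bp, a secreted glycoprotein that binds galectin, was at 8.51, 8.02 and 8.40 in wild type and 8.94, 9.79 and 8.88 in NMF291–/–. Every NMF291–/– array lay above wild type, at 1.86-fold on average (0.89 ± 0.27 log2, SE; limma adjusted p = 0.12), with a difference of 0.60 when NMF291–/– replicate 2 was left out. All 6 of its probe sets were above 0 without overlap, from 0.75 to 1.16. Lgals9, or galectin-9, was at 8.38, 8.11 and 8.27 against 8.46, 8.73 and 8.63 (0.35 ± 0.10, SE; limma adjusted p = 0.101). Rtp4, an interferon-induced chaperone of receptors, was at 0.15 (-0.16 to 0.47) and Ifi35 at 0.05 (-0.10 to 0.19), both with overlap. Ifi44, measured at the exon level, had 10 of 12 probe sets above 0. Its probe set 5095229 went from 3.18, 3.68 and 3.93 to 4.90, 4.58 and 4.97 (limma adjusted p = 0.0557), values below the same percentile.

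Over the 557 probe sets, 394 (70.7%) had a difference above 0, where 53.1% of all probe sets with 1 symbol did. In 109 (19.6%) every NMF291–/– array was above every wild-type array and in 26 (4.67%) every one was below, against 14.1% and 10.3% of all. At an unadjusted p under 0.05, 88 probe sets (15.8%) were higher and 9 (1.62%) lower, against 10.1% and 6.9%. By role, the share of probe sets without overlap and higher was 36.4% for the other induced genes, 34.3% for the transcription factors and 33.8% for the sensors and Mavs. It was 13.8% for the GTPases, 13.3% for the effectors that act on RNA, 12.9% for the receptors, 10.8% for the TRIM ligases, 0 of 14 for the membrane effectors, 2.33% for those that act on nucleotides and 0 of 43 for the PARP family and Dtx3l. The share without overlap and lower was 14.3% for the membrane effectors, 12.9% for the receptors and 11.6% for those that act on nucleotides. For the other roles it lay between 0 and 5.71%, where 10.3% of all probe sets were placed so. Without Ddx58 the count of higher probe sets without overlap over the list was 95 of 537 (17.7%). Stat2 contributed 19 of its 27 probe sets, Irf9 7 of 9, Mavs 7 of 12, Lgals9 6 of 12 and Irf8 4 of 9. Probe set 4657407 of Irf8 went from 6.50, 6.94 and 6.58 to 7.40, 7.74 and 7.59 (limma adjusted p = 0.0524). Of the genes measured at the exon level alone, Gbp6, a guanylate-binding protein, had 8 of 11 probe sets above 0 (median 0.16), Ifitm2, a relative of Ifitm3, 2 of 4 (0.01) and Oas3, an oligoadenylate synthetase, 5 of 13 (-0.06). At the other end, 17 of 22 probe sets of Samhd1, 12 of 19 of Ifnar1, 9 of 13 of Irf1, 8 of 11 of Irf2 and 8 of 12 of Irf3 were below 0. NMF291–/– replicate 2 was the highest array in 250 of the 557 probe sets (44.9%), against 18.9% of all.

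**Figure D4:**
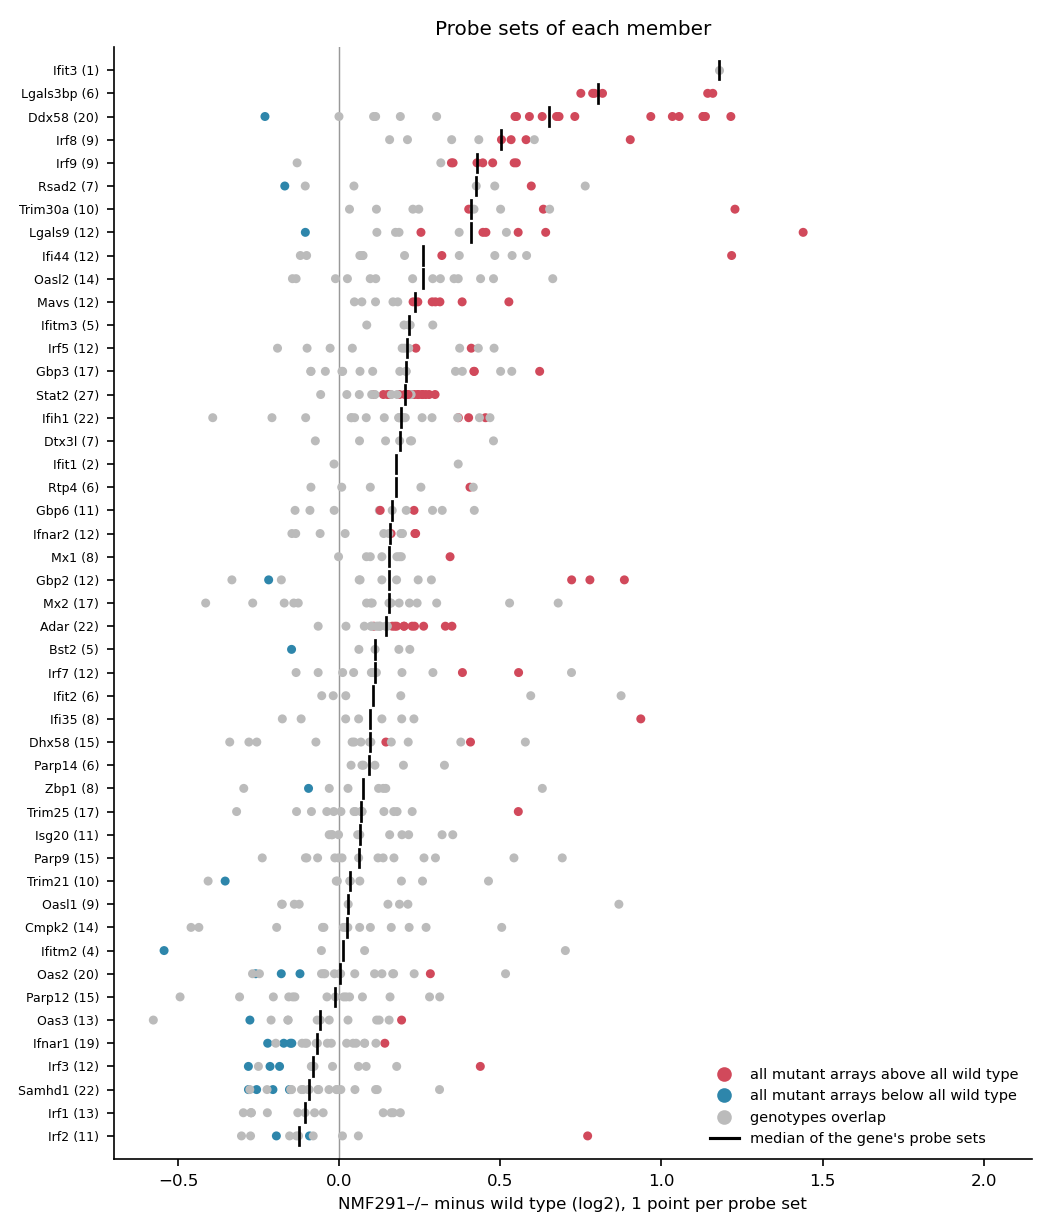
Each row is 1 of the 47 genes with an exon-level row, with its number of probe sets in brackets, and each point is the difference of 1 probe set between genotypes on the log2 scale; the colour tells whether the arrays of the genotypes overlap, and the black bar is the gene's median. Lgals3bp, Ddx58, Irf9 and Stat2 hold mostly points without overlap above 0, while the points of Parp12, Cmpk2 and Isg20 lie around 0 with overlap.

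Whether single exons were used differently was asked by setting each probe set against the median of its gene's probe sets on the same array. Most genes of the list were too low for this: 10 of them, with 137 probe sets, met the requirement of at least 3 probe sets and a gene median no lower than the table median. None of the 137 passed (11 had an unadjusted p under 0.05 by limma, against 11.2% of all tested), while 9 of the 107352 probe sets tested did (0.00838%). The smallest p-values were those of 5594248 in Lgals3bp, at 0.38 (limma adjusted p = 0.238), 5442762 in Ifnar2, at -0.31 (0.287), and 5323361 in Adar, at 0.14 (0.365). In simulated arrays, with noise drawn apart for each probe set, 40 of 100 changes of 1 and 0 of 100 changes of 0.5 were recovered over 107160 probe sets. Probe sets of a gene that vary together on an array were not simulated, so these shares set no detection limit here.

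Interferon acts on genes through a DNA element, the interferon-stimulated response element or ISRE, which the complex with Stat2 and Irf9 binds, and interferon gamma through another, the GAS element. Both were searched in RefSeq promoter windows of assembly GRCm38.p6, which run from 250 bases before a transcription start to 50 bases after it. For the ISRE the letters were GAAA, any 2 bases and GAAA, on either strand, and for GAS they were TTC, any 3 bases and GAA, which read alike on both strands. Of 42 genes of the list with a window, 18 (42.9%) held ISRE letters in at least 1 window, against 3.99% of all 27025 genes, and 13 (31%) held GAS letters, against 9.55%. Since the list was chosen for the interferon response, both shares describe the list and are no result of these arrays. Among the 34 of these genes with a gene-level row, the 13 with ISRE letters had a median difference of 0.18, with 11 above 0, and the 21 without had one of 0.13, with 16 above 0. The windows of Mavs, Irf9, Irf5 and Lgals3bp, which belong to the 9 genes with the smallest p, hold neither set of letters. A match describes letters and is neither a shown binding site nor a cause.

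The stretches around the matches are printed for genes on which the results turn, 5′ to 3′ on the strand of the gene, with matched letters in capitals. The first 4 are genes with a match among the 9 with the smallest p, of which Adar, with 1 GAS match, is not printed. Ifit1, Bst2 and Ifitm3 follow as genes with ISRE letters whose genotypes overlapped, chosen after their values were seen. The ISRE of Ddx58 begins 2 bases after the start, at chr4:40239796-40239863 on the minus strand. The pair in Lgals9 begins 55 bases before and 15 after the start, at chr11:78984895-78985019 on the minus strand. The ISRE of Stat2 begins 222 bases before the start, at chr10:128270248-128270325 on the plus strand. The GAS pair of Irf8 begins 171 and 153 bases before the start, at chr8:120736147-120736253 on the plus strand. The pair in Ifit1 begins 104 and 85 bases before the start, at chr19:34640745-34640853 on the plus strand. In Bst2, at chr8:71537547-71537642 on the minus strand, the matches begin 130 and 124 bases before the start and overlap each other, and GAS letters overlap the first. In Ifitm3, at chr7:141010715-141010782 on the minus strand, they begin 2 and 19 bases after the start, with GAS letters that overlap the second.
Ddx58: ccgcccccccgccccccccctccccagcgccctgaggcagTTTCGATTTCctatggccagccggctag
Lgals9: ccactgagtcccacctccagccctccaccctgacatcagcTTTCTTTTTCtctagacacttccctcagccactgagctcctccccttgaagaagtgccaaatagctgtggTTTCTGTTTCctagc
Stat2: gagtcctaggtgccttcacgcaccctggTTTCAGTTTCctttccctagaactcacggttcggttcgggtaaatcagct
Irf8: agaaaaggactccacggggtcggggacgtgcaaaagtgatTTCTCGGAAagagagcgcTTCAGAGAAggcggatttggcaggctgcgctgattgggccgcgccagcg
Ifit1: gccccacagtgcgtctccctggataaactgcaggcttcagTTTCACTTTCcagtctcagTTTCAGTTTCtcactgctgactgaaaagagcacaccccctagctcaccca
Bst2: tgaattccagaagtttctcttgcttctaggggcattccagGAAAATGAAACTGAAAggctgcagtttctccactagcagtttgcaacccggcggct
Ifitm3: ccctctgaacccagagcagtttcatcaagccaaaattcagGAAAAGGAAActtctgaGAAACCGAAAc
Ddx58 and Stat2, with 1 ISRE match each, and Lgals9, with 2, had NMF291–/– arrays that were all above wild type. Ifit1, Bst2 and Ifitm3, with 2 each, overlapped between genotypes. The former were picked for small p-values and the latter for overlap, so the contrast between them is no result. Of the genes not printed, Gbp3, with 2 ISRE matches, lay higher on every NMF291–/– array, and Irf2, with 1, lay lower on every one.

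Other genes of the pathway were measured beside the list: ligands, kinases, Toll-like receptors and their adaptors, and further induced genes. Of 46 such genes 34 have a gene-level row, and 3 rose (limma adjusted p under 0.05) and 0 fell, where 4.21% of all genes with 1 symbol rose. The median difference was 0.10, with 26 above 0, and 21 after either median centring or quantile normalization. Ly6e, an interferon-induced membrane protein, was at 11.58, 11.41 and 11.52 in wild type and 11.86, 11.89 and 11.98 in NMF291–/–, and rose by 0.41 ± 0.06 (SE; limma adjusted p = 0.0269). Myd88, the adaptor of most Toll-like receptors, was at 8.34, 8.21 and 8.22 against 8.55, 8.63 and 8.70, and rose by 0.37 ± 0.06 (SE; limma adjusted p = 0.0316). Tlr7, the endosomal receptor for single-stranded RNA, was at 7.08, 6.69 and 6.56 against 7.55, 8.34 and 7.85, and rose 2.20-fold (1.14 ± 0.23 log2, SE; limma adjusted p = 0.0486). The genotypes did not overlap for any of the 3. Tlr7 did not pass after median centring (adjusted p = 0.0518) or quantile normalization (0.0524). Without wild-type replicate 1, Ly6e and Myd88 passed (limma adjusted p = 0.0486 and 0.049), and with any other array left out 0 of the 3 did.

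Next by p-value, and not passing, were the kinase Tyk2, which associates with Ifnar1, at 0.27, the nuclear body protein Pml at 0.18, Tor3a at 0.24, the MHC class I light chain B2m at 0.36 and the signalling ligase Traf6 at 0.13 (limma adjusted p from 0.0829 to 0.166). Their NMF291–/– arrays lay above all wild-type arrays. At an unadjusted p under 0.05 (limma), 9 of these other genes were higher (26.5%, against 14.8% of all genes) and 1 lower (8.98% of all genes were). The lower one, Ifngr2, named after its values were seen, was at -0.14 (limma adjusted p = 0.192). Every NMF291–/– array of Ifngr2 lay below every wild-type array. The interferon gene Ifnb1 was at -0.10 (interval -0.73 to 0.53) and Ifng at -0.07 (-0.25 to 0.11), without passing. Ifnb1 had a wild-type mean of 6.55, below the 25th percentile of the gene-level table, 6.61. With that level and interval, its row does not show whether the ligand changed. Both genes are named, after their values were seen, because they encode the ligands.

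Markers of microglia differed between genotypes on the same arrays. Of 20 microglia markers 19 were measured, and 11 rose and 0 fell (limma adjusted p under 0.05). Of all genes with 1 symbol, 4.21% rose and 2.29% fell at that threshold, which also holds beside the marker lists below. The median over the microglia markers was 0.63, 0.96 and 0.62 above the wild-type mean in NMF291–/– replicates 1, 2 and 3, and between -0.02 and 0.04 in wild type. The interferon and RNA sensor genes stood at -0.01, 0.24 and 0.09 in the same order, and between -0.03 and 0.05 in wild type, so replicate 2 was the highest NMF291–/– array for both lists. The other pathway genes stood at 0.07, 0.16 and 0.11. Of 14 markers of other leukocytes 11 were measured and 0 passed, with array medians between -0.03 and 0.04. The 8 endothelial markers measured likewise had 0 passing and array medians between -0.02 and 0.04. Of 8 astrocyte and Bergmann glia markers 1 rose, Gfap, the filament protein of reactive astrocytes. It was at 9.30, 9.15 and 9.05 in wild type and 10.28, 11.15 and 10.50 in NMF291–/–, 2.79-fold higher on average (limma adjusted p = 0.0272) and again highest on replicate 2. Of 5 granule neuron markers 1 fell, the GABA receptor subunit gene Gabra6 (-0.46; limma adjusted p = 0.0165), and 0 of the Purkinje cell, oligodendrocyte and choroid plexus markers passed. No gene is on more than 1 of these lists, and the part of microglia, astrocytes or granule neurons in the differences of the interferon and RNA sensor genes was not tested.

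**Figure D5:**
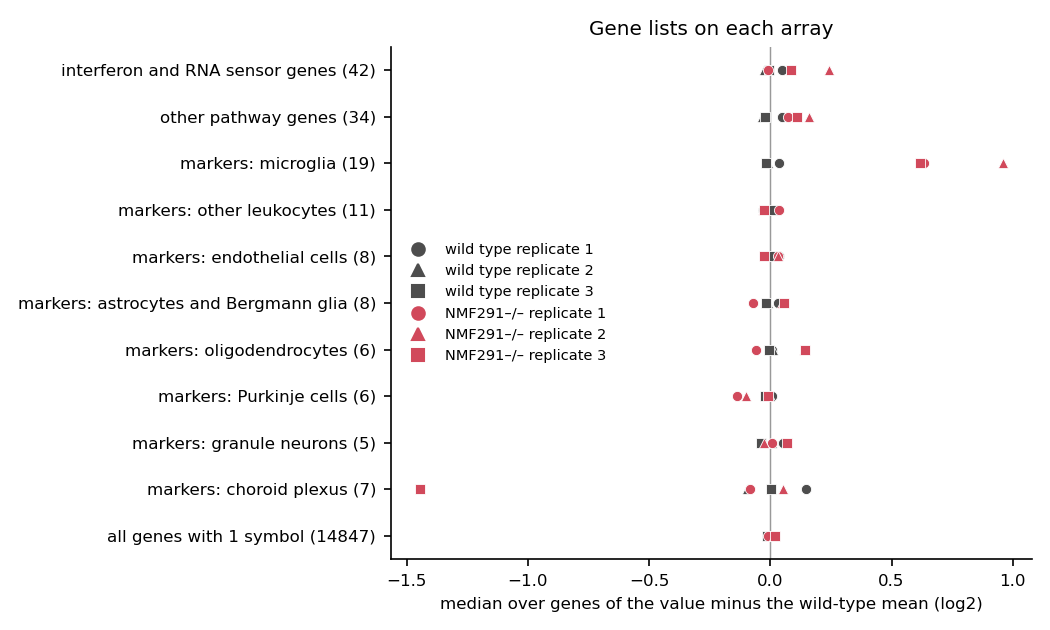
Each row is a list of genes with the number measured in brackets, and each point is 1 array, given as the median over the list of the gene-level log2 value minus the wild-type mean. Microglia markers lie between 0.62 and 0.96 on the NMF291–/– arrays, the interferon and RNA sensor genes between -0.01 and 0.24, and choroid plexus markers at -1.45 on NMF291–/– replicate 3.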

How the data were processed

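Gene-level and exon-level values of the same 6 arrays were used as deposited. The authors' deposited values are taken as log2, from their range of 2.32 to 14.5. How the authors corrected background, normalized and summarised probes is not stated in the labels, and mm8 is the build named in the submitters' processing notes. Of 23332 gene-level rows, 6577 carry probe set IDs; 14996 rows and 209279 of 229581 probe sets have 1 symbol. For 22 probe sets an older symbol was updated through RefSeq synonyms (GRCm38.p6), those of Mavs and Trim30a. The members and lists were chosen with earlier results of these data known. Differences were tested with limma 3.58.1 (lmFit, eBayes, two-sided) in R 4.3.3, adjusted by Benjamini-Hochberg across every row of the table, a threshold of 0.05, no covariate and no filter on low values. Intervals are 95% and unadjusted. P-values measure the spread between mice, which the series text calls biological replicates. Exon usage was tested for probe sets no lower than the 25th percentile, and one that equals its gene's median scores 0, which makes its spread too small. Named were passing members, the 3 smallest p-values per role, the extremes of level, passing probe sets or else the 3 smallest p-values, and 8 other pathway genes; every remaining member is given by its difference. In simulated arrays 60 of 100 changes of 0.5 and 82 of 100 changes of 1 were recovered over 23332 gene-level rows, and 0 and 18 of 100 over 229581 probe sets. In all, 18 simulated probe sets were called, while 2125 probe sets with 1 symbol passed in the data, so these shares set no detection limit. Same-numbered mice of the genotypes did not deviate together (r = -0.01, -0.04 and 0.03), so numbers were not taken as pairs. Figures were drawn with matplotlib 3.10.9.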

Additional observations from a re-analysis of the deposited data

How the results depend on the processing

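The count of 0 interferon and RNA sensor genes passing at the gene level held after median centring, quantile normalization, with the replicate number as a block (replicate block) and with any 1 array left out (0 to 0). It was 4 of 42 at an adjusted p under 0.1, where 1915 of all 14847 genes with 1 symbol passed. It was 6 among the 14 genes in rows at or above the table median, where 23.3% of all genes in those rows passed. Over transcript clusters alone it was 2, and with limma's trend and robust settings 2. The filters test fewer rows. At the exon level the count of 1 probe set became 0 after median centring, quantile normalization, with the replicate block or with any array left out (0 to 0). It became 12 at an adjusted p under 0.1, 17 in rows at or above the table median and 29 with trend and robust settings, and the cause was not tested. For counts without a share beside them, the share of all genes or probe sets at that setting is not given here, so they cannot be read as an excess. No exon usage call was gained or lost. For the other pathway genes the count of 3 became 0 with the replicate block, 5 at an adjusted p under 0.1, 5 over transcript clusters alone, and 0 to 2 with 1 array left out. The median difference of 0.12 ran from 0.04 (without NMF291–/– replicate 2) to 0.17 with 1 array left out, and was 0.07 after median centring and 0.08 after quantile normalization. Signal over background was not given, so low genes carry no detection call.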
